A study of Rattus norvegicus with 20 samples.

Results

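The mRNAs of the cytosolic ribosomal proteins were measured in the arcuate nucleus of male Sprague-Dawley rats at postnatal day 15. Members were the genes whose symbol is Rpl or Rps followed by a number, with at most a closing a, x or y, and the genes Rplp0, Rplp1, Rplp2 and Rpsa. The rule took 70 of the 13292 genes tested: 26 of the small subunit, 41 of the large subunit without its stalk, and 3 of the stalk. They lay on 143 of the 44254 spots of the array, and 28 of them had 1 spot while 42 had more. All 70 had a value in each of the 20 samples, so the filter on missing values removed none. Rps27a was not measured under this name. The spots annotated as Rpl37 carry an accession that RefSeq names Rpl37l1, and were left out.

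The cytosolic ribosome joins a small subunit, which holds the mRNA and reads its codons, to a large subunit, which forms the peptide bonds and whose protein stalk recruits the elongation factors. Ribosomal protein mRNAs are among the most abundant of a cell, neurons included. In mammals these mRNAs usually start with a run of pyrimidines, the terminal oligopyrimidine tract, through which the kinase mTORC1 controls their translation.

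The study looked at infantile spasms and their treatment, with 4 rats in each of 5 groups. SNS rats had prenatal saline, no spasms and postnatal saline. BNS rats differed from them by prenatal betamethasone, a synthetic glucocorticoid, given to the dam in 2 injections of 0.4 mg/kg on gestational day 15, and also had no spasms and postnatal saline. BYS, BYA and BYP rats shared that betamethasone exposure, had spasms triggered with the glutamate receptor agonist NMDA on postnatal days 12, 13 and 15, and received saline, ACTH or PMX53 respectively. ACTH, a pituitary hormone, is a standard therapy for such spasms, and PMX53 blocks the complement receptor C5ar1. The model is a triggered one, and whether the rats of a group came from separate litters is not given in the sources used here. P-values therefore measure the spread between these samples.

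Of the 20 samples, 18 shared an array with another of their group, one in the dye Cy3 and one in Cy5, while SNS replicates 1 and 2 were each the only sample of the study on their array. Levels are log2 intensities over the median gene of a sample. The 20 samples lay on 11 arrays of 6 slides. BNS, BYS, BYA and BYP each had a slide of their own, so slide and group cannot be told apart for them. SNS replicate 2 is labelled Cy5, and this is uncertain, since its spots with a value (44159) resemble those of Cy3 samples and its file lists it first. Of 8 arcuate genes, Agrp was at percentile 98.4 of all genes, Npy at 99.4, Pomc at 97.3 and Cartpt at 93.2. Th was at 87, Tac3 at 85.9, Ghrh at 68.8 and Kiss1 at 34.8. Of 4 pituitary genes listed, 2 were measured, Pou1f1 at 6.03 and Cga at 25.7. The 20 samples had values at 34107 to 44249 spots. Because the values are intensities relative to each sample, fewer cells of a type and less RNA per cell cannot be told apart. The number of arrays limits the precision.

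The sequence at the annotated start was looked up for the 12 members that were lower in BYS than in BNS because the pyrimidine tract sits there. RefSeq (build GRCr8) gave a start sequence for 60 of the 70 members, and for 9 of these 12. Each window runs 5′ to 3′ on the gene's strand and holds 15 bases before the start and 15 from it on. Capitals mark the unbroken run of C and T that holds the first transcribed base, and a window without capitals starts with A or G.
Rpl10, chrX:157205835-157205864, plus strand: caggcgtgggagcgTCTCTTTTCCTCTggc
Rpl17, chr18:70856261-70856290, plus strand: tagccttcgcgCTTCCTCTTCCTgttagcg
Rps23, chr2:23814502-23814531, plus strand: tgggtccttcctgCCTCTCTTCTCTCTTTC
Rps7, chr6:50999431-50999460, minus strand: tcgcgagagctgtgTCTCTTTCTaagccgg
Rpl18, chr1:105325255-105325284, plus strand: tctggacctggtctagcaggaggcgccatc
Rpl23, chr10:83272170-83272199, minus strand: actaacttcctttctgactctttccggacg
Rpl38, chr10:100200420-100200449, plus strand: cttcgttctttttccgttgttcggtgctcg
Rps12, chr1:23500060-23500089, plus strand: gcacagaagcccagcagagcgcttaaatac
Rps6, chr5:106420526-106420555, minus strand: gacgcctcctaggcggtcggctgtgtcaag

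A run of at least 8 pyrimidines on the gene's strand that covered the first base was present in 31 of the 60 members with a start sequence (51.7%) and in 1484 of all 33469 start sequences (4.43%). The first 4 windows above have such a run and the other 5 do not. Of the 31 members with the run, 4 were lower in BYS than in BNS, and of the 29 without it 5 were. Their median differences were -0.16 and -0.13 (log2). A start that is annotated some bases off would hide a run, and the match describes letters, not a working tract.

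Most ribosomal protein mRNAs were bright: by mean level over the 20 samples, 67 of the 70 lay in the highest decile of all genes. Rpl15 was dim, at 0.03 to 0.88 (log2) in single samples. The median member in SNS replicates 1 to 4 was at 5.79, 6.09, 5.81 and 6.40 (log2 level over the median gene). In BNS it was at 5.88, 6.42, 5.86 and 6.49, and in BYS at 5.69, 6.42, 5.40 and 6.07. In BYA it was at 6.0, 6.52, 5.79 and 6.21, and in BYP at 5.99, 6.50, 5.92 and 6.55. Replicates 2 and 4, labelled with Cy5, were higher than replicates 1 and 3 in every group, and the 5 groups overlapped. The fitted dye effect on the members had a median of 0.56 (log2, Cy5 minus Cy3), with 69 of 70 above 0, against -0.07 over all genes.

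**Figure D1:**
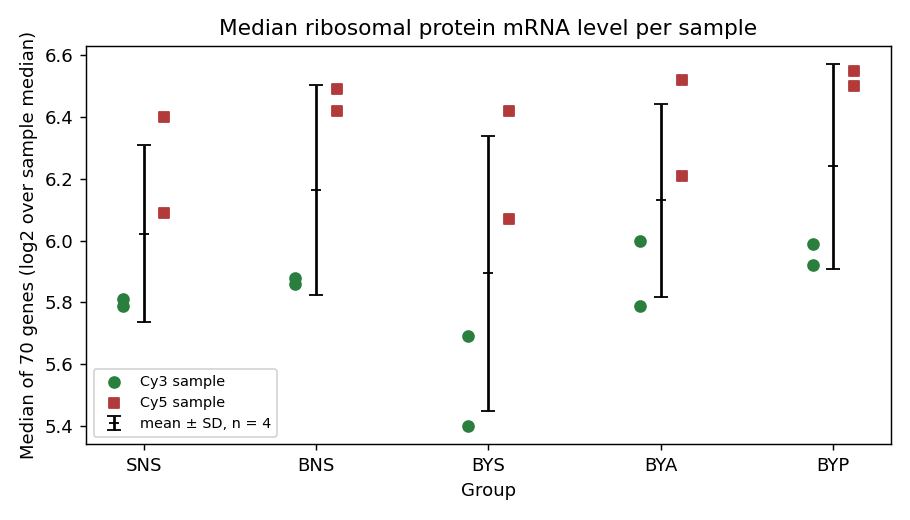
The plot of sample medians shows the median log2 level of the 70 ribosomal protein genes in each sample by group, with circles for Cy3 and squares for Cy5 samples and bars for the mean ± SD of 4 samples. The dye separates the samples within each group, and the lowest sample is BYS replicate 3 at 5.40.

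BYS was compared with BNS to ask what triggered spasms changed in rats exposed alike before birth. Of the 70 members, 12 were lower in BYS and 0 were higher. A gene was called where the adjusted p of limma, over the 13292 genes of a comparison, was under 0.05, and 6.62% of all genes were called lower. The 12 were Rps6, Rps7, Rps12, Rps23, Rps25 and Rps29 of the small subunit and Rpl10, Rpl15, Rpl17, Rpl18, Rpl23 and Rpl38 of the large subunit. The median member differed by -0.16 (log2, BYS minus BNS) and the median of all genes by 0.18. In all, 46 of the 70 members had a difference below 0, compared with 35.9% of all genes. The members are bright, and the brightest decile of all genes, which holds 67 of them, had a median of -0.08, with 164 genes called lower and 8 higher, while the dimmest decile had a median of 0.61. The count of 12 was 6 without BNS replicate 2 or without BNS replicate 4, where 4.96% and 4.36% of all genes were called lower. It was 2 with the slide in place of the array as the random block, where 1.69% of all genes were called lower. Markers of oligodendrocytes also differed: 3 of the 8 measured were called higher in BYS, and 2, Mbp and Cnp, were below 0. Their mean level ran from -0.10 to 0.87 in BYS samples and from -1.47 to -0.21 in BNS samples. In BYA against BNS 0 of these 8 markers were called and 3 had an unadjusted limma p under 0.05. There 0 were below 0, with a median of 1.03. In BNS against SNS 0 were called and 1 had an unadjusted limma p under 0.05. There 7 were below 0, with a median of -0.92. In BYS against BNS, 1 of 8 arcuate genes was called lower and 0 higher, Agrp at -0.89 ± 0.28 (limma adjusted p = 0.0423). Of 4 endothelial genes, 1 was called higher and 0 lower, Flt1 at 0.56 ± 0.16 (limma adjusted p = 0.0237). Markers of neurons, astrocytes, microglia, blood and pituitary had 0 called. The part of these markers in the members' differences was not tested.

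**Figure D2:**
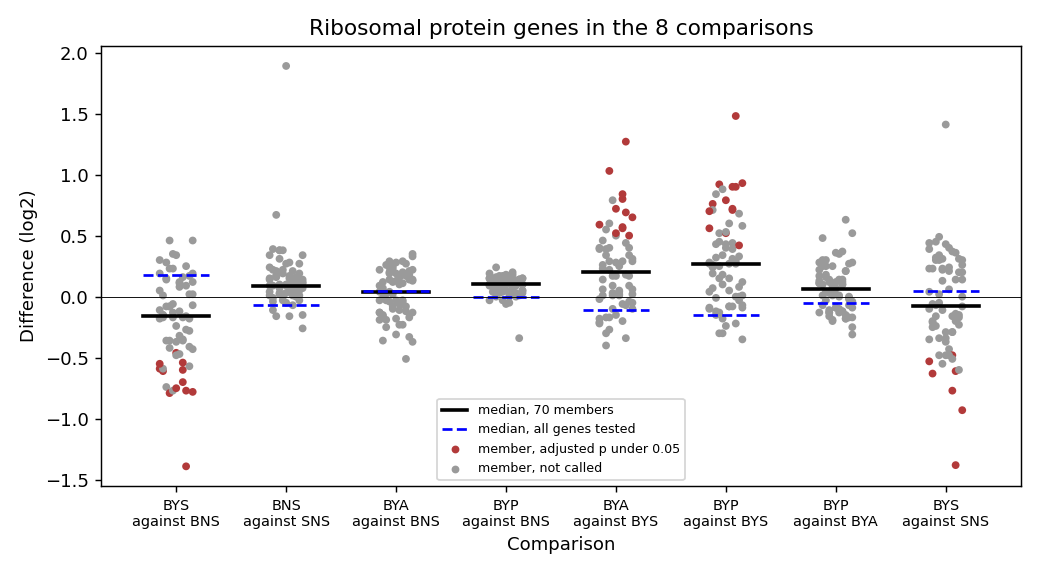
The plot of differences shows the fitted log2 difference of each of the 70 ribosomal protein genes in the 8 comparisons, red where limma's adjusted p was under 0.05, with a black line at the members' median and a dashed line at the median of all genes. Calls appear in the 4 comparisons that include BYS, with 12 members lower against BNS, 12 and 13 higher in BYA and BYP against BYS, and 7 lower against SNS.

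Rpl18, a protein of the large subunit, gave the largest of these differences. Its level was 4.26, 4.70, 4.77 and 5.05 (log2) in BYS replicates 1 to 4 and 5.88, 6.25, 5.86 and 6.33 in BNS replicates 1 to 4. All 4 BYS samples lay below the samples of every other group, the lowest of which was BYA replicate 3 at 5.62. Rpl18 was lower in BYS by 2.62-fold, a difference of -1.39 ± 0.17 (log2 ± SE, n = 4 per group, limma adjusted p = 0.000108). It has 1 spot, and the spots around it differed by -0.82 (log2).

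That neighbourhood value bears on all members, because differences between arrays depended on position. A spot's neighbourhood is the window of 15 by 15 spots around it, and its value is the median over that window of a sample's deviation from the mean of all samples. Over 142 member spots with a value in every sample, the difference of a spot (BYS minus BNS) followed that of its neighbourhood with r = 0.855 (Spearman rho = 0.868). The spots share the same 8 samples, so this describes those arrays. The dependence on position was not limited to BYS: r was 0.71 in BYA against BNS and 0.744 in BYP against BYA, and 0.34 in BYP against BNS. Where neighbours differed by less than -0.2 in BYS against BNS, 49 of 51 member spots were below 0, with a median of -0.66. Where neighbours differed by more than 0.2, 4 of 44 were below 0, with a median of 0.28. Between these bounds 29 of 47 were below 0, with a median of -0.09.

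**Figure D3:**
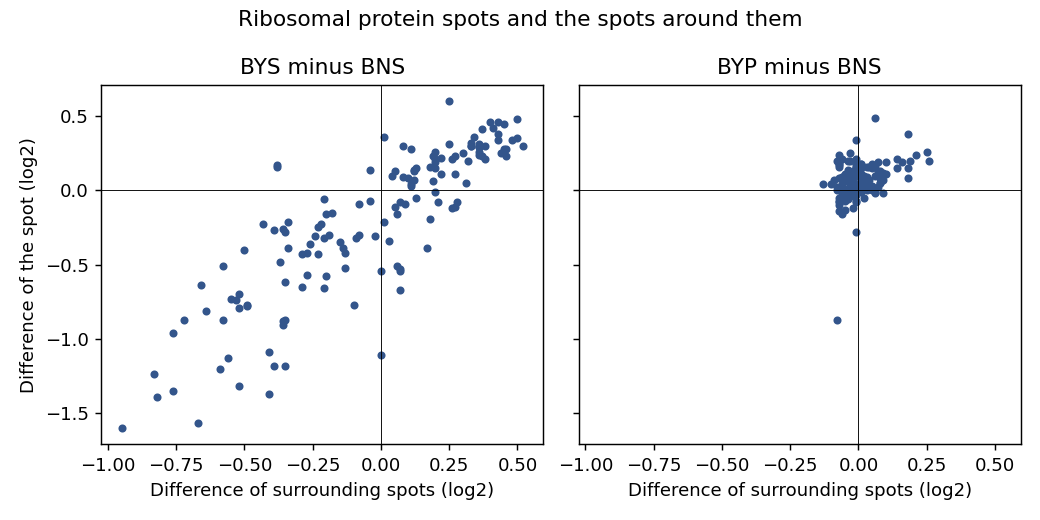
The plot of spots against their neighbourhoods shows the log2 difference of each of 142 ribosomal protein spots (vertical) by that of the spots around it (horizontal), for BYS minus BNS on the left and BYP minus BNS on the right. The left cloud runs along the diagonal (r = 0.855) and the right one is small and loose (r = 0.34).

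Genes with many spots show the spread directly. Rpl15, of the large subunit, was the dimmest member, at percentile 60.8 of all genes. It has 10 spots, with mean levels from 0.38 to 0.85 (log2). Their differences (BYS minus BNS) ran from -1.57 to 0.13 with an SD of 0.55 (log2), or 0.31 after the neighbourhood was subtracted. The 10 spots of Rps4x, a small-subunit protein encoded on the X chromosome, ran from -0.88 to 0.48 with an SD of 0.46, or 0.21 after subtraction. In BYA minus BNS the same spots ran from -0.67 to 0.18 for Rpl15 and from -0.38 to 0.08 for Rps4x, and in BYP minus BNS from -0.14 to 0.02 and from -0.13 to 0.03. Of the 42 members with more than 1 spot, 29 had spots of opposite sign in BYS minus BNS, 25 of them more than 0.5 apart. The median range within a gene was 0.767 there, 0.307 in BYA minus BNS and 0.099 in BYP minus BNS.

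**Figure D4:**
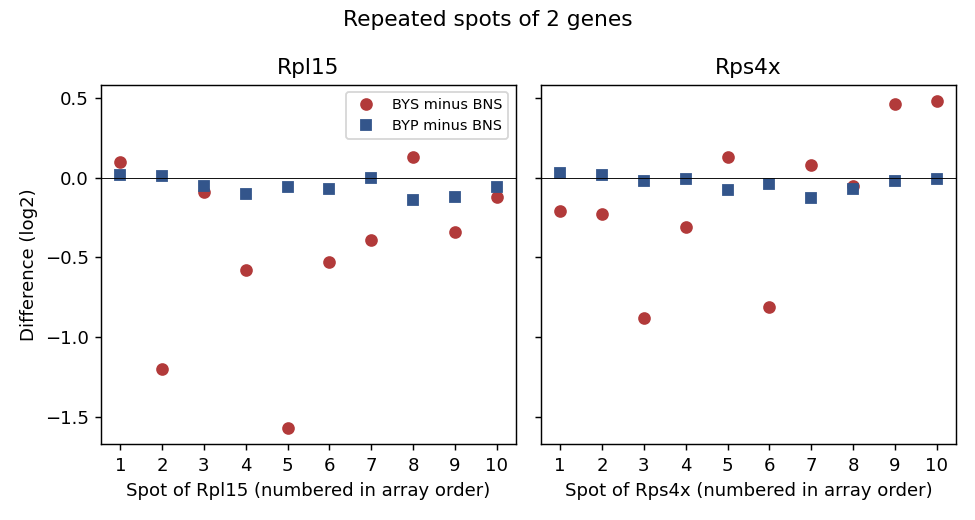
The plot of repeated spots shows the log2 difference at each of the 10 spots of Rpl15 (left) and Rps4x (right), with circles for BYS minus BNS and squares for BYP minus BNS. The circles spread over 1.70 and 1.36 (log2) and the squares over 0.16 for each gene.

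The comparison was therefore also fitted with this local trend removed from each sample. Then 6 members were lower in BYS than in BNS and 0 were higher, where 3.15% of all genes were called lower. They were Rpl15, Rpl18, Rps6, Rps7 and Rps29, all among the 12, and Rpl23a, which had not been called with the trend left in (-0.43 ± 0.24, limma adjusted p = 0.217). Rpl18 then differed by -0.61 ± 0.12 (limma adjusted p = 0.0073), less than the -1.39 with the trend in. Rpl15, the dimmest member, differed by -0.41 ± 0.12 (adjusted p = 0.0425), beside -0.46 ± 0.14 with the trend in (adjusted p = 0.0392). The median member then differed by -0.18 (log2), against a median of 0.07 over all genes. The members were not set beside genes of like brightness in this fit. With quantile normalization added, the members' median was 0.00 and 1 member was called lower, as were 0.647% of all genes.

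In the small subunit, Rps6, which the S6 kinases phosphorylate, had 2 spots that differed. At the first, BYS replicates 1 to 4 were at 4.02, 4.39, 4.50 and 4.80 (log2) and BNS replicates at 5.41, 5.86, 5.34 and 5.83. At the second, BYS replicates were at 5.26, 5.94, 5.06 and 5.87 and BNS replicates at 5.21, 5.62, 5.22 and 5.72. The groups were apart at the first spot and overlapped at the second. The first differed by -1.18 with neighbours at -0.35, and the second by 0.09 with neighbours at 0.08. Averaged over both, Rps6 was lower in BYS by 0.55 ± 0.13 (log2, limma adjusted p = 0.0099), and by 0.45 ± 0.10 with the local trend removed (adjusted p = 0.015). With the brightest spot alone its difference was 0.10.

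**Figure D5:**
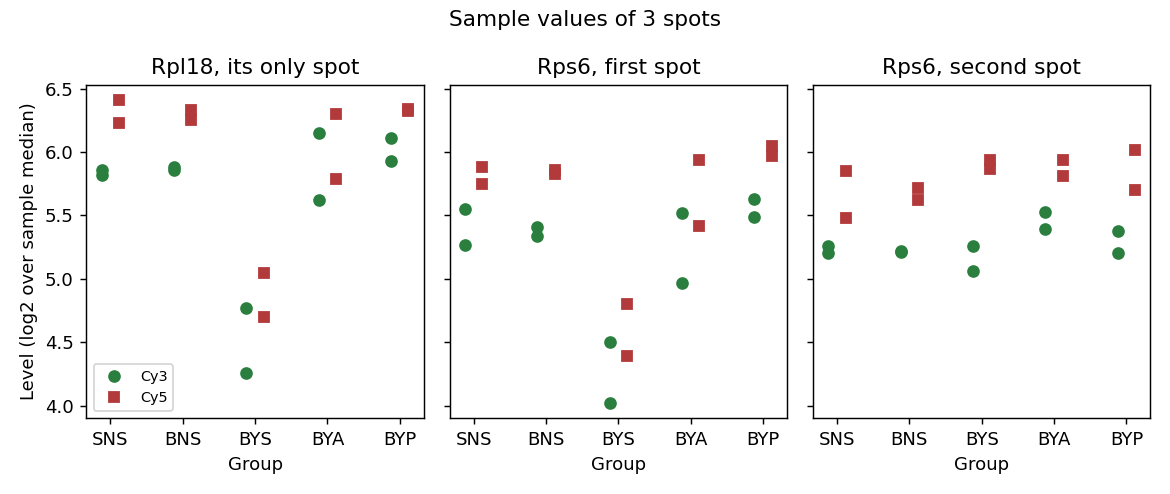
The plot of 3 spots shows the log2 level over the sample median at the spot of Rpl18 and at the first and second spots of Rps6 in each sample by group, with circles for Cy3 and squares for Cy5. BYS lies below the other groups at Rpl18 and at the first spot of Rps6, while at the second its samples overlap theirs and BYS replicate 3 is the lowest of all at 5.06.

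Rps7, a small-subunit protein that can bind the p53 regulator Mdm2, was at 4.61, 5.39, 5.18 and 5.99 (log2) in BYS replicates 1 to 4 and at 5.59, 6.23, 5.34 and 6.18 in BNS replicates. The groups overlapped, since the Cy5 samples of BYS reached the Cy3 samples of BNS, though within each dye every BYS sample was lower. Rps7 was lower in BYS by 0.54 ± 0.18 (limma adjusted p = 0.0486), its only spot had neighbours at 0.00, and with the trend removed it was lower by 0.59 ± 0.16 (adjusted p = 0.0277). Rps29, of the small-subunit head, was at 6.10, 6.96, 5.90 and 6.67 in BYS and at 6.79, 7.55, 6.76 and 7.52 in BNS. These groups overlapped across dyes and not within a dye. Rps29 was lower by 0.75 ± 0.15 (limma adjusted p = 0.0044), and its 2 spots differed by -0.77 with neighbours at -0.10 and by -0.73 with neighbours at -0.55.

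Rps25, a small-subunit protein known for its part in initiation at some viral RNAs, was dimmer than most members. It was at 2.03, 2.35, 2.35 and 2.52 (log2) in BYS replicates and at 3.09, 3.27, 2.89 and 3.1 in BNS replicates, and the groups did not overlap. The difference was -0.78 ± 0.15 (limma adjusted p = 0.00295) with neighbours at -0.49, and -0.33 ± 0.11 with the trend removed (adjusted p = 0.0729). Rps23, of the decoding centre, differed by -0.70 ± 0.21 (limma adjusted p = 0.0338), and its 3 spots by -0.40, -1.18 and -0.51. The spot at -0.51 split by array, with BYS replicates 1 to 4 at 2.84, 3.34, 5.2 and 5.86. BNS replicates there were at 4.61, 4.95, 4.63 and 5.1. The spot at -0.40 did so too, with BYS replicates at 6.03, 6.8, 6.88 and 7.83 and BNS replicates at 6.87, 7.75, 6.81 and 7.72. At these spots BYS replicates 1 and 2 lay below the BNS samples of their dye, and replicates 3 and 4 above. At the spot at -1.18 all BYS samples lay below BNS. Rps12 differed by -0.60 ± 0.15 (limma adjusted p = 0.0147), from spots at -1.24 and 0.04 with neighbours at -0.83 and 0.11. Neither Rps23 nor Rps12 passed with the trend removed (limma adjusted p = 0.102 and 0.14).

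In the large subunit, Rpl38, which in mice is needed for the translation of some Hox mRNAs, was at 5.09, 5.79, 5.40 and 6.06 (log2) in BYS replicates and at 5.99, 6.72, 5.94 and 6.76 in BNS replicates. BYS was lower within each dye, and BYS replicate 4 overlapped the Cy3 samples of BNS. The difference was -0.77 ± 0.19 (limma adjusted p = 0.0118), and its 4 spots differed by -1.35, -0.39, -0.21 and -1.13. Rpl17, at the exit of the peptide tunnel, differed by -0.61 ± 0.18 (limma adjusted p = 0.0311), from spots at -1.37 and 0.14. Rpl10, which completes the large subunit late in assembly, differed by -0.59 ± 0.17 (limma adjusted p = 0.0307), and Rpl23 by -0.79 ± 0.26 (adjusted p = 0.045). Rpl23 was at 6.18 and 7.19 in BYS replicates 1 and 2 and at 5.10 and 5.79 in replicates 3 and 4. In BNS replicates it was at 6.41, 7.33, 6.41 and 7.27. With the trend removed these 4 genes had limma adjusted p from 0.0586 and 0.0585 for Rpl38 and Rpl17 to 0.0882 and 0.202 for Rpl10 and Rpl23.

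The stalk proteins showed no call. Rplp0, the base of the stalk, was at 7.14, 8.26, 6.76 and 7.65 (log2) in BYS replicates and at 7.16, 7.83, 6.99 and 7.79 in BNS replicates, and the groups overlapped. Over Rplp0, Rplp1 and Rplp2 the differences of BYS from BNS ran from -0.16 to 0.01. Rpsa, also known as the laminin receptor, and Rps24 had the highest differences of any member, 0.46 ± 0.18 (limma adjusted p = 0.0906) and 0.46 ± 0.16 (adjusted p = 0.0617), and neither was called. Rpl5 and Rpl11 bind the 5S ribosomal RNA. Rpl11 stood apart by array, at 6.61 and 7.51 in BYS replicates 1 and 2 and at 5.37 and 5.80 in replicates 3 and 4. Rpl5 did so the other way, at 4.01 and 4.46 in the first array and at 5.05 and 5.55 in the second. Such pairs of samples share an array, which the fit takes as a block.

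BYA was compared with BYS to ask what ACTH changed in rats with spasms. Of the 70 members, 12 were higher in BYA and 0 were lower, where 4.99% of all genes were called higher. The median member differed by 0.20 (log2, BYA minus BYS) and the median of all genes by -0.11. In the brightest decile, which holds 67 members, 156 of 1330 genes were called higher and 7 lower, with a median of 0.12. The 12 were Rps6, Rps7, Rps12, Rps23, Rps25, Rps29, Rpl9, Rpl10a, Rpl18, Rpl23, Rpl27 and Rpl38. This comparison shares the BYS samples with the one before and with the next, so these are not separate evidence about BYS.

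Rpl18 was at 6.15, 6.30, 5.62 and 5.79 (log2) in BYA replicates 1 to 4, all above the BYS samples, and was higher in BYA by 1.27 ± 0.17 (limma adjusted p = 0.000172). Rps7 was at 5.82, 6.35, 5.85 and 6.50 in BYA and was higher than in BYS by 0.84 ± 0.18 (limma adjusted p = 0.00788), with 1 BYS sample inside the range of BYA. Rps6 was at 5.45, 5.88, 5.25 and 5.68 and was higher by 0.59 ± 0.13 (limma adjusted p = 0.00833). With the local trend removed these 3 were the members called higher, where 1.38% of all genes were. Rpl18 then differed by 0.73 ± 0.12, Rps7 by 0.68 ± 0.16 and Rps6 by 0.57 ± 0.10 (limma adjusted p = 0.00491, 0.0332 and 0.00773). Rpl9, Rpl10a and Rpl27, large-subunit proteins not called in BYS against BNS, differed by 0.52 ± 0.14, 0.56 ± 0.15 and 0.50 ± 0.13 with the trend in (limma adjusted p = 0.0321, 0.0295 and 0.0231). The 2 spots of Rpl10a differed by 1.09 and 0.03 with neighbours at 0.46 and -0.04.

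BYP was compared with BYS to ask the same of PMX53. Of the 70 members, 13 were higher in BYP and 0 were lower, where 5.36% of all genes were called higher. The median member differed by 0.27 (log2, BYP minus BYS) and the median of all genes by -0.15. In the brightest decile, which holds 67 members, 150 of 1330 genes were called higher and 4 lower, with a median of 0.06. The 13 were Rps6, Rps7, Rps12, Rps23, Rps25, Rps29, Rpl10, Rpl17, Rpl18, Rpl23, Rpl27, Rpl36a and Rpl38. Rpl18 was at 5.93, 6.34, 6.11 and 6.32 in BYP replicates 1 to 4, above every BYS sample, and was higher by 1.48 ± 0.17 (limma adjusted p = 7.69e-05). Rps25 was at 3.20, 3.35, 3.16 and 3.24, also above every BYS sample, and was higher by 0.93 ± 0.15 (limma adjusted p = 0.000957). Rps6 was higher by 0.70 ± 0.13 (limma adjusted p = 0.00249). With the local trend removed 11 members were higher, where 1.90% of all genes were. These were Rps6, Rps7, Rps23, Rps25, Rps29, Rpl17, Rpl18 and Rpl38, and Rpl7a, Rpl8 and Rpl19, which had differed by 0.32 ± 0.14, 0.33 ± 0.15 and 0.34 ± 0.18 with the trend in and had not been called. With quantile normalization added, 0 members were called in BYA or in BYP against BYS, where 0.263% and 0.331% of all genes were called higher. The oligodendrocyte markers stood the other way in BYP against BYS: 7 of the 8 measured were below 0, with a median of -1.32 (log2), 0 were called and 5 had an unadjusted p under 0.05. Their mean level ran from -1.76 to -0.13 in BYP samples and from -0.10 to 0.87 in BYS samples, and their part in the members' differences was not tested.

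Against BNS, the rats given ACTH or PMX53 showed no called member. In BYA against BNS 0 of 70 members were called by limma (0.241% of all genes) and 0 at an unadjusted p under 0.05 (9.76% of all genes). In BYP against BNS 0 were called (0.0301% of all genes) and 0 at an unadjusted p under 0.05 (5.46%). The unequal-variance test named in the study's methods also called 0 in both, unadjusted, where it called 8.87% and 6.37% of all genes. Median member differences were 0.04 (log2, BYA minus BNS) and 0.10 (BYP minus BNS). The first had no stable sign, at -0.01 with samples centred on their 75th percentile, -0.04 with quantile normalization and 0.10 without BYA replicate 4. Member differences ran from -0.51 for Rplp1 to 0.35 for Rpsa in BYA and from -0.34 for Rps16 to 0.24 for Rpl7a in BYP. Rpl18 differed from BNS by -0.12 ± 0.17 in BYA and by 0.09 ± 0.17 in BYP, beside -1.39 ± 0.17 in BYS. Rps6 differed by 0.04 ± 0.13 and 0.15 ± 0.13, beside -0.55 ± 0.13 in BYS. All 3 comparisons share the BNS samples, and a missed threshold does not show equal levels.

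BYP and BYA were compared to ask whether the 2 treatments differed. Of the members, 0 were called by limma (0.0301% of all genes) and 2 had an unadjusted p under 0.05 (4.62% of all genes), Rpl23a and the stalk protein Rplp1. The methods' test called 0 unadjusted (4.14% of all genes). Rplp1 was at 6.33, 6.65, 5.21 and 5.20 (log2) in BYA replicates 1 to 4 and at 6.14, 6.88, 6.26 and 6.64 in BYP replicates. The BYA samples split by array, replicates 3 and 4 lying below all BYP samples. The difference was 0.63 ± 0.29 (BYP minus BYA, limma adjusted p = 0.934).

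BNS was compared with SNS to ask what prenatal betamethasone left behind at this age. Of the members 0 were called by limma (0.00752% of all genes), and 3 had an unadjusted p under 0.05 (14.9% of all genes), by the methods' test 1 (6.79%). The median member differed by 0.09 (log2, BNS minus SNS) and the median of all genes by -0.07. The members' median was -0.07 with SNS replicate 2 taken as Cy3, so its sign rests on that label, and it was 0.01 without that sample and 0.03 with samples centred on their 75th percentile. Rps18, a protein of the small-subunit head, had the largest difference, 1.89 ± 0.75 (limma adjusted p = 0.285). It was at 6.05, 6.64, 2.13 and 2.44 in SNS replicates 1 to 4 and at 6.26, 6.94, 6.22 and 6.87 in BNS replicates. SNS replicates 3 and 4, which share an array, lay far below all other samples, and SNS replicates 1 and 2 within or near the range of BNS. Rpl13a differed by 0.67 ± 0.26 (limma adjusted p = 0.277).

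BYS was compared with SNS, which differs in both betamethasone and spasms. Of the members 7 were lower in BYS and 0 were higher, where 5.18% of all genes were called lower: Rps6, Rps12, Rps23, Rps25, Rpl17, Rpl18 and Rpl38. In the brightest decile, which holds 67 members, 120 of 1330 genes were called lower and 18 higher, with a median of 0.04. Rpl18 was at 5.86, 6.23, 5.82 and 6.41 in SNS replicates 1 to 4, above every BYS sample, and was lower in BYS by 1.38 ± 0.16 (log2, limma adjusted p = 6.32e-05). Rps25 was at 3.19, 3.25, 3.27 and 3.25 in SNS, above every BYS sample, and was lower in BYS by 0.93 ± 0.14 (limma adjusted p = 0.000505). The median member differed by -0.08 and the median of all genes by 0.05. The members' median was 0.07 with the brightest spot and -0.23 with SNS replicate 2 taken as Cy3, so its sign is not settled. With the local trend removed 1 member was lower, Rpl18, by 0.64 ± 0.12 (limma adjusted p = 0.0112), where 0.85% of all genes were called lower. Leaving out SNS replicate 1 or BYS replicate 1 gave 3 members and BYS replicate 2 gave 4, all of them lower, beside 3.54%, 4.91% and 4.15% of all genes called lower. Leaving out SNS replicate 4 gave 3 lower and 1 higher (4.16% and 1.28% of all genes), and SNS replicate 2 gave 13 lower and 2 higher (6.73% and 8.25%).

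Other genes of the translation apparatus were read from lists, beside 8.88% of all genes called higher and 6.62% called lower in BYS against BNS. Among 17 measured translation genes with terminal oligopyrimidine tracts, 2 were lower in BYS than in BNS and 0 higher, with a median of -0.05 (log2). They were Tpt1, the translationally controlled tumour protein, at -0.65 ± 0.18 and Hnrnpa1, an RNA-binding protein, at -0.58 ± 0.15 (limma adjusted p = 0.0247 and 0.0193). Of 29 ribosome biogenesis genes, 2 were higher and 5 lower, with a median of -0.09. Mrto4, which helps build the base of the stalk, was lower by 0.94 ± 0.14 and Nhp2, of the pseudouridylation complex, by 0.75 ± 0.14 (limma adjusted p = 0.000499 and 0.00205), while Ubtf, a factor of ribosomal RNA transcription, was higher by 0.40 ± 0.12 (adjusted p = 0.03). Of 21 genes that control translation, 2 were higher and 1 lower, with a median of 0.11. Tsc1 and Rps6ka2 were higher by 0.82 ± 0.26 and 0.80 ± 0.17 (limma adjusted p = 0.0381 and 0.00578). Mlst8, an mTOR complex subunit, was lower by 0.78 ± 0.17 (limma adjusted p = 0.00597). Of 3 measured paralogs left out by the rule, Rpl22l1 was lower by 0.65 ± 0.21 (limma adjusted p = 0.0465) and the other two were not called. With the local trend removed, Hnrnpa1 and Mlst8 were the genes of these lists that stayed called (limma adjusted p = 0.0306 and 0.0336).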

How the data were processed

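The submitters' processing notes name Agilent Feature Extraction 10.7.3.1. What the authors deposited is, per sample, 1 linear intensity a spot. How its background was corrected and how it was normalized is not given in the sources used here. All 20 sample columns were used. Spots were named through the platform annotation and RefSeq: 27361 by accession, 3488 by symbol, 785 by synonym, 12 as annotated, and 12608 stayed unnamed. After log2, spots needed 3 or more values a group, those complete in all 20 samples were averaged per gene, and 799 of the 13292 genes came from their most complete spot. The median over the 12493 genes complete in all samples was subtracted from each sample.

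All samples entered 1 fit with limma 3.58.1 in R 4.3.3, with group, dye and the array as a random block (correlation 0.436), two-sided, with Benjamini-Hochberg adjustment over all genes of each of the 8 contrasts. The step was tested on simulated data. Plots used matplotlib 3.10.9 in Python 3.11.15.

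The members, the lists and the comparisons were chosen with earlier results of these data known. Some settings changed after first results were seen. Samples were first centred on the median of the 32107 spots complete in all samples, and this was replaced by the median of the genes because the earlier analysis of these data had been run so. The first setting gave 8, 12, 10 and 6 called members in BYS against BNS, BYA and BYP against BYS, and BYS against SNS, where the present one gives 12, 12, 13 and 7. Of all genes the first setting called 14%, 7.7%, 9.4% and 7.18%, and the present one calls 15.5%, 8.67%, 9.68% and 7.58%. The filter on values was first applied after averaging, which left the members' counts the same. The local trend had been planned over neighbours in feature order, and the grid of 85 by 532 spots and the window of 15 by 15 were set after the dependence on position was seen. Named are all called members, the 3 highest and 3 lowest of each comparison, the stalk, Rpsa, Rps6, Rpl5, Rpl10 and Rpl11, and members whose spots disagree in sign by over 0.5, of which the text gives those its results turn on. Alternatives covered centring, normalization, filters, spots, names, blocks, dye, samples, test and position.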

Additional observations from a re-analysis of the deposited data

Results flagged for a closer look

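In 4 of 255 sets of 4 samples tested, a sample lay farther from the others than Dixon's 95% limit allows. For 4 like samples chance alone gives about 1 in 20 such sets. Each group here mixes Cy3 and Cy5 samples, and the members' dye effect had a median of 0.56 (log2), so that rate cannot be applied. All 4 were SNS replicate 4. Its log2 level was 5.58 for Rpl7a, with the nearest SNS sample at 5.14, and 6.64 for Rplp1, with the nearest at 6.26. It was 6.12 for Rps14, with the nearest at 5.65, and 6.28 for Rps7, with the nearest at 5.74. SNS replicate 4 is a Cy5 sample, and the only other SNS sample labelled so is replicate 2, whose label is uncertain. The part of the dye in these values was not tested.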

How the results depend on the processing

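Called members are given for BYS against BNS, BYA against BYS, BYP against BYS and BYS against SNS, which had 12, 12, 13 and 7 (15.5%, 8.67%, 9.68% and 7.58% of all genes). Without the array block they were 24, 19, 27 and 16, with 35.6%, 23.2%, 29.7% and 18.0% of all genes called, and they included 2 higher in the first, 1 lower in the third and 5 higher in the fourth. They were 2, 1, 3 and 2 (2.26%, 1.60%, 1.05% and 1.64% of all genes) where the random block was the slide, whose spread rests on SNS, the group on more than 1 slide. With the local trend removed they were 6, 3 and 1 (9.45%, 2.1% and 1% of all genes) for all but BYP against BYS, which had 11 (3.45%), 8 of its 13 and 3 others. With quantile normalization added they were 1, 0, 0 and 1 (8.16%, 1.2%, 1.66% and 1.81% of all genes), with medians of 0.00, 0.03 and 0.06 for the first 3. There 1 member was called lower in BNS against SNS (1.72% of all genes called). Quantile normalization alone gave 4 in BYA against BYS (4.78% of all genes), with a median of 0.06, and a median of -0.06 in BNS against SNS. With SNS replicate 2 as Cy3 the counts were 19, 21 and 22 for BYS against BNS, BYP against BYS and BYS against SNS (30.5%, 24.3% and 22.7% of all genes). The 19 held 17 lower and 2 higher (9.45% and 21% of all genes). The medians of BNS and of BYS against SNS were then -0.07 and -0.23. In BYS against BNS quantile normalization alone also gave 2 higher, as did leaving out the dye term (10.3% and 13% of all genes). The count of higher members there was 1 with 75th percentile centring, no centring or the brightest spot (9.21%, 8.52% and 7.47%). It was 1 without the lowest 25% of genes, with the compared groups alone, or without BYS replicates 3 and 4 (8.71%, 27% and 7.28%). Cy3 samples alone gave 7 in BYS against BNS and 3 in BYS against SNS (13.2% and 6.52% of all genes), and Cy5 samples alone 1, 0, 0 and 0 (4.16%, 0.166%, 0% and 0% of all genes). The methods' t-test gave 5, 5, 8 and 4 unadjusted, beside 19.8%, 12.1%, 14.1% and 15.4% of all genes, with 1 in BNS against SNS, and 2, 0, 0 and 0 after Benjamini-Hochberg (3.27%, 0.0828%, 0.391% and 1.14%). A minimum of 1 value a group gave 6 in BYS against BNS and 4 in BYS against SNS (7.86% and 4.14% of all genes). Leaving out the lowest 25% of genes gave 11 in BYS against SNS (14.8%). The compared groups alone gave 1 in BYA against BYS and 2 in BYS against SNS (4.36% and 1.32%). The brightest spot gave 7 in BYA against BYS (8.52% of all genes) and a median of 0.07 in BYS against SNS, which was also 0.07 without the array of BYS replicates 3 and 4. Quantile normalization on top of the local trend and leaving out an array of BYS were chosen after seeing the data. The cause of these changes was not tested.

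With the brightest spot, Rpl15, Rpl17, Rps12 and Rps6 turned to 0.15, 0.16, 0.05 and 0.10 in BYS against BNS, Rpl17 and Rps12 to -0.05 and -0.02 in BYP against BYS, and Rpl17, Rps12 and Rps6 to 0.23, 0.21 and 0.09 in BYS against SNS. Rpl18 was called lower in BYS than in BNS under all 33 alternatives, with differences from -1.60 to -0.44. Leaving out 1 sample gave 6 to 11 members in BYS against BNS (6 without BNS replicate 2 or 4), 8 to 13 in BYA against BYS, 9 to 15 in BYP against BYS and 3 to 15 in BYS against SNS. The shares of all genes called there ran from 7.45% to 17%, from 6.08% to 8.97%, from 4.96% to 10% and from 4.89% to 15%. Replicate numbers were not taken as pairs in the main fit. At most 2 of 4 same-numbered pairs of any 2 groups correlated above 0.1, and 4 pairs are too few to exclude a pairing. A replicate block gave 11, 12, 14 and 6 members (14.4%, 8.25%, 9.25% and 6.94% of all genes). Over all alternatives the members' median ran from -0.07 to 0.15 in BNS against SNS and from -0.04 to 0.13 in BYA against BNS. It ran from -0.08 to 0.12 in BYP against BYA and from -0.23 to 0.07 in BYS against SNS. The medians of these comparisons have no settled sign. The 11 arrays limit what can be resolved.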
